A study of Mus musculus with 8 samples.

Results

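Epithelial-mesenchymal transition (EMT) genes were described in 8 mouse mammary tumours: the transcription factors Zeb1, Zeb2, Snai1, Snai2, Twist1, Twist2 and Prrx1, and the mesenchymal markers Vim, Cdh2 and Fn1. These 10 genes were listed by name, and each was read from the array probe that names that gene alone, or from the brightest such probe on average over the tumours where there were several. A probe of this kind was present for 9 of the 10 genes, out of 22180 genes with one on the array, and all 9 passed the filter on dim genes (a mean log2 signal under 4.06), which left 16635 genes for testing. Both probes for Zeb2 also name another gene, so no value is given for it.

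The study profiled total RNA of primary mammary tumours from untreated transgenic FVB mice on Affymetrix whole-transcript arrays, 1 array per tumour. Of the tumours, 4 carried the genotype NeuNT/H1074R and 4 carried NeuNT. Neu is the rodent ErbB2 receptor tyrosine kinase, and NeuNT is an activated form of it that both groups share. The series title describes ErbB2-positive tumours with either wild type p110α, the catalytic subunit of a phosphoinositide 3-kinase encoded by Pik3ca, or its H1047R mutation, which the sample labels write as H1074R. The labels name neither the promoter behind the transgenes nor ages, and do not say that each tumour is from its own mouse, so the p-values speak only of variation among these 8 tumours. The tumours are numbered 1 to 4 within each genotype in the order of deposit, and these numbers pair nothing across genotypes.

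EMT is a programme in which epithelial cells lose cell-cell junctions and gain a motile, fibroblast-like state. The Snail, Zeb and Twist factors bind E-box DNA and lower, directly or indirectly, the expression of Cdh1, which encodes the adhesion protein E-cadherin, while vimentin, N-cadherin and fibronectin become abundant. Fibroblasts, pericytes and other stromal cells of a tumour carry many of the same transcripts, and Snai2 is also a factor of normal basal mammary epithelium. In RNA of whole tumours, fewer cells of a type and less RNA per cell cannot be told apart. Epcam, an epithelial surface protein, had log2 signals of 10.25, 10.84, 10.64 and 10.84 in NeuNT/H1074R tumours and 10.71, 10.18, 10.99 and 10.43 in NeuNT tumours, and all 26 listed epithelial genes were above the dim limit.

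The Zeb factors are repressed by microRNAs of the miR-200 family and by miR-205, and repress miR-200 genes in turn. The mature mouse sequences are shown because the array reads their precursors in the same tumours. They are from RefSeq (GRCm38.p6), written 5′ to 3′ with the seed, bases 2 to 8, in capitals. The first 3 share one seed, the next 2 share another that differs within it, and miR-205 has its own.
miR-200b-3p: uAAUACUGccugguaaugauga
miR-200c-3p: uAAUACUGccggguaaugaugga
miR-429-3p: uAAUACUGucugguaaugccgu
miR-200a-3p: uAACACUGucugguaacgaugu
miR-141-3p: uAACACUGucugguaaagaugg
miR-205-5p: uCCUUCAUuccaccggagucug

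The promoter of Snai1 is shown because it alone, among the 6 members with an entry in the RefSeq promoter table (Snai1, Twist1, Twist2, Prrx1, Vim and Zeb2), held the E-box CACCTG or its reverse complement CAGGTG, the motif the Snail and Zeb factors recognise. The window runs from 250 bases before to 50 bases after the gene start, at chr2:167537945-167538244 on the plus strand of GRCm38.p6, and the motif, in capitals, begins at position -126 relative to the start. Of 32851 promoters of this length, 6640 (20.2%) held the motif on either strand, so the match is a description of the letters and not of a bound site.
Snai1: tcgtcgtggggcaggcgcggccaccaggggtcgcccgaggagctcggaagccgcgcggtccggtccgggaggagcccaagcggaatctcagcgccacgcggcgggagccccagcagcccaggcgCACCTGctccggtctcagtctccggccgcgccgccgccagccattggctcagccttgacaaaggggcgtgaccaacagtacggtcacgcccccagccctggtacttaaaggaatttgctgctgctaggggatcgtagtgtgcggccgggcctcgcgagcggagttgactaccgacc

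No EMT gene differed between the genotypes beyond the spread between tumours. On average 4 members were higher in NeuNT/H1074R tumours (Twist2, Snai1, Prrx1 and Fn1) and 5 were lower (Snai2, Vim, Cdh2, Zeb1 and Twist1), and 0 of 9 passed limma with Benjamini-Hochberg adjustment. Their differences, given here as NeuNT/H1074R minus NeuNT on the log2 scale, ran from -0.66 for Snai2 to 0.30 for Twist2, with a median of -0.07, against -0.0027 for all tested genes. Across all genes 0.0% passed the adjusted threshold of 0.05, and 3.82% had an unadjusted p under 0.05, which 0 of the 9 members had. The genotypes did not overlap for 2.69% of genes and overlapped for all 9 members.

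**Figure D1:**
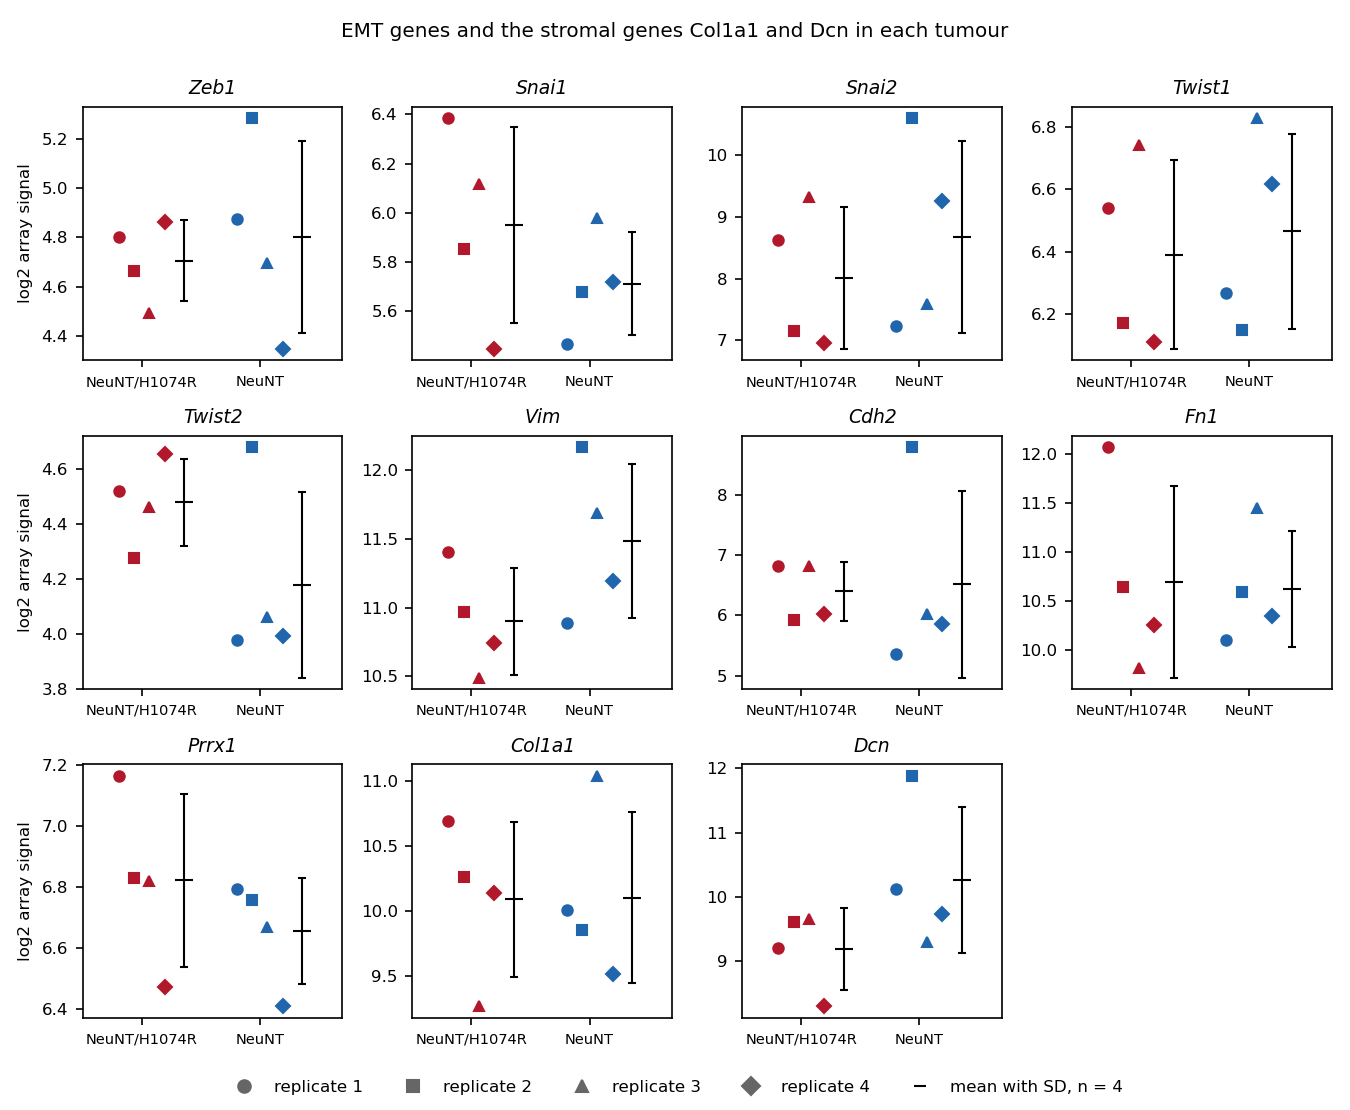
Log2 array signal of the 9 measured EMT genes and of the stromal genes Col1a1 and Dcn, with NeuNT/H1074R tumours left of NeuNT tumours in each panel; marker shapes give the replicate number, and bars are the mean with SD (n = 4 each). Each panel has its own scale, the genotypes overlap in every panel, and NeuNT tumour 2 is the highest for Snai2, Cdh2, Vim, Zeb1, Twist2 and Dcn.

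Among the Snail factors, Snai1, a repressor of E-cadherin, had log2 signals of 6.38, 5.85, 6.12 and 5.45 in NeuNT/H1074R tumours 1 to 4, against 5.47, 5.68, 5.98 and 5.72 in NeuNT tumours 1 to 4. The highest and the lowest value were both in NeuNT/H1074R tumours. The difference was 0.24 ± 0.21 (SE, n = 4 each; limma adjusted p = 0.978), with a 95% interval from -0.24 to 0.72, and it ranged from 0.095 without NeuNT/H1074R tumour 1 to 0.41 without NeuNT/H1074R tumour 4.

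Snai2 (Slug), the Snail factor of basal mammary cells, varied far more. Its log2 signals were 8.62, 7.15, 9.31 and 6.95 in NeuNT/H1074R tumours, against 7.24, 10.59, 7.59 and 9.26 in NeuNT tumours. Each genotype held a pair of high and a pair of low tumours, with a gap of 1.02 between the lowest of the 4 high values and the highest of the rest. The mean was 8.01 ± 1.14 in NeuNT/H1074R tumours and 8.67 ± 1.55 in NeuNT tumours (SD, n = 4 each), a difference of -0.66 ± 0.81 (SE; limma adjusted p = 0.978). The 95% interval ran from -2.52 to 1.197, so large changes either way were within it. Without NeuNT tumour 2 the difference was -0.022.

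Zeb1, a zinc-finger repressor of epithelial genes, had log2 signals of 4.80, 4.66, 4.49 and 4.86 in NeuNT/H1074R tumours and 4.87, 5.28, 4.70 and 4.35 in NeuNT tumours. The NeuNT values enclosed those of the other genotype. The difference was -0.09 ± 0.19 (SE, n = 4 each; limma adjusted p = 0.986), with a 95% interval from -0.54 to 0.35, and without NeuNT tumour 2 it was 0.067.

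The Twist factors are basic helix-loop-helix proteins of mesoderm development. Twist1 gave 6.54, 6.17, 6.74 and 6.11 in NeuNT/H1074R tumours, against 6.27, 6.15, 6.83 and 6.62 in NeuNT tumours, all as log2 signal. High and low tumours were found in both genotypes, and the difference was -0.07 ± 0.21 (SE, n = 4 each; limma adjusted p = 0.988), with a 95% interval from -0.55 to 0.40.

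Twist2 gave log2 signals of 4.52, 4.28, 4.46 and 4.66 in NeuNT/H1074R tumours, against 3.98, 4.68, 4.06 and 3.99 in NeuNT tumours. All 4 NeuNT/H1074R values lay above 3 of the NeuNT values, and NeuNT tumour 2 was the highest of all 8. The difference of 0.30 ± 0.17 (SE, n = 4 each) had a 95% interval from -0.09 to 0.69 and did not pass (limma adjusted p = 0.978, unadjusted p = 0.114). Without NeuNT tumour 2 it was 0.47 (limma adjusted p = 0.959). Of the NeuNT values, 3 were under the dim limit of 4.06.

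For Prrx1, a homeobox factor of mesenchymal cells, log2 signals were 7.16, 6.83, 6.82 and 6.47 in NeuNT/H1074R tumours and 6.79, 6.76, 6.67 and 6.41 in NeuNT tumours. It had the smallest spread of the 9 members, and the difference was 0.16 ± 0.17 (SE, n = 4 each; limma adjusted p = 0.978), with a 95% interval from -0.23 to 0.56, and it ranged from 0.050 without NeuNT/H1074R tumour 1 to 0.28 without NeuNT/H1074R tumour 4.

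Of the markers, Vim, which encodes the intermediate filament vimentin, had log2 signals of 11.40, 10.97, 10.49 and 10.74 in NeuNT/H1074R tumours, against 10.89, 12.17, 11.69 and 11.20 in NeuNT tumours. NeuNT tumours 2 and 3 lay above all NeuNT/H1074R tumours, and NeuNT tumours 1 and 4 lay within their range. Vim had the smallest unadjusted p of the members, 0.0827 by limma, for a difference of -0.58 ± 0.30 (SE, n = 4 each; limma adjusted p = 0.978) with a 95% interval from -1.26 to 0.09. Leaving out NeuNT tumour 2 gave -0.36, and the second Vim probe gave -0.475.

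Cdh2, which encodes N-cadherin, rested on 1 tumour for much of its spread. Its log2 signals were 6.82, 5.92, 6.82 and 6.03 in NeuNT/H1074R tumours, against 5.37, 8.79, 6.03 and 5.86 in NeuNT tumours. NeuNT tumour 2 stood above all the rest, and on the second Cdh2 probe it was again the highest, at 6.96 against at most 5.30 elsewhere. The difference was -0.11 ± 0.69 (SE, n = 4 each; limma adjusted p = 0.993), with a 95% interval from -1.68 to 1.45, and its sign turned, to 0.65, without that tumour. Over all 8 tumours the second Cdh2 probe gave a difference of -0.416.

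Fn1, which encodes the matrix protein fibronectin, had log2 signals of 12.07, 10.65, 9.81 and 10.26 in NeuNT/H1074R tumours and 10.10, 10.59, 11.45 and 10.35 in NeuNT tumours. Both the highest and the lowest tumour were NeuNT/H1074R. The difference was 0.07 ± 0.49 (SE, n = 4 each; limma adjusted p = 0.993), with a 95% interval from -1.04 to 1.18, and it ranged from -0.38 without NeuNT/H1074R tumour 1 to 0.37 without NeuNT/H1074R tumour 3.

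**Figure D2:**
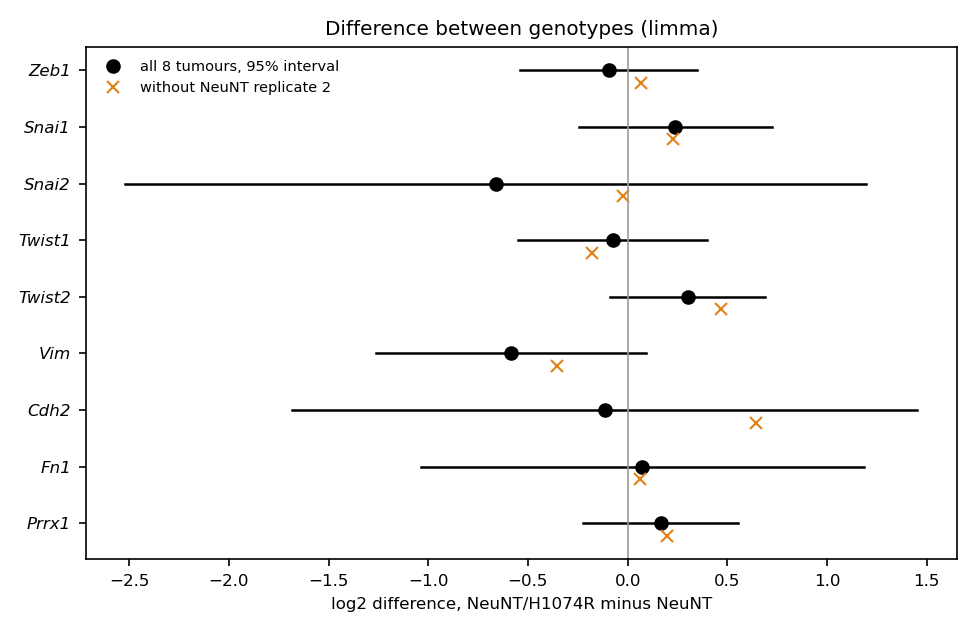
Difference of each EMT gene, NeuNT/H1074R minus NeuNT on the log2 scale (x axis), from limma over 8 tumours with its 95% interval, and the value without NeuNT replicate 2 (crosses). All 9 intervals include 0, and Snai2 and Cdh2 have the widest intervals and the largest shifts without that tumour, to -0.022 for Snai2 and 0.65 for Cdh2.

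The members fell into a variable and a steady set. The SD over the 8 tumours was 1.31 on the log2 scale for Snai2, a value that 1.62% of tested genes exceeded. It was 1.06 for Cdh2 (2.89% of genes exceeded it), 0.749 for Fn1 (6.65%) and 0.545 for Vim (13.0%). The other 5 lay between 0.235 for Prrx1 and 0.321 for Snai1, close to the median of all genes, 0.2498.

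Single tumours carried the highest values of several members. NeuNT tumour 2 was the highest for 5 of 9 (Zeb1, Snai2, Twist2, Vim and Cdh2), and NeuNT/H1074R tumour 1 was the highest for 3 (Snai1, Fn1 and Prrx1). NeuNT tumour 2 also had the highest list means of fibroblast markers (0.64 above the 8-tumour average on the log2 scale, other tumours -0.57 to 0.30), of pericyte and smooth muscle markers (1.06, others -0.44 to 0.42) and of endothelial markers (0.49, others -0.37 to 0.07). Within the pericyte and smooth muscle list, Cnn1 (11.53), Myh11 (10.79), Tagln (10.35), Acta2 (12.27) and Rgs5 (10.12) were highest in this tumour. Cspg4, Notch3 and Mcam were not, and Des was the lowest of the 8 there (5.61), with Kcnj8 (6.95) and Abcc9 (7.78) also low. The adipocyte mean was 0.95 in NeuNT tumour 2 and 0.96 in NeuNT tumour 1, with the other tumours between -0.69 and 0.11. NeuNT/H1074R tumour 1 had the highest skeletal muscle mean, 1.39, followed by 1.21 in NeuNT/H1074R tumour 3, with the other 6 at -0.69 to -0.12. Without these 2 tumours the differences of Snai1, Prrx1 and Fn1 were -0.06, -0.0066 and -0.17. The part of pericytes, smooth muscle, endothelial cells and adipocytes in the members' values was not tested.

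**Figure D3:**
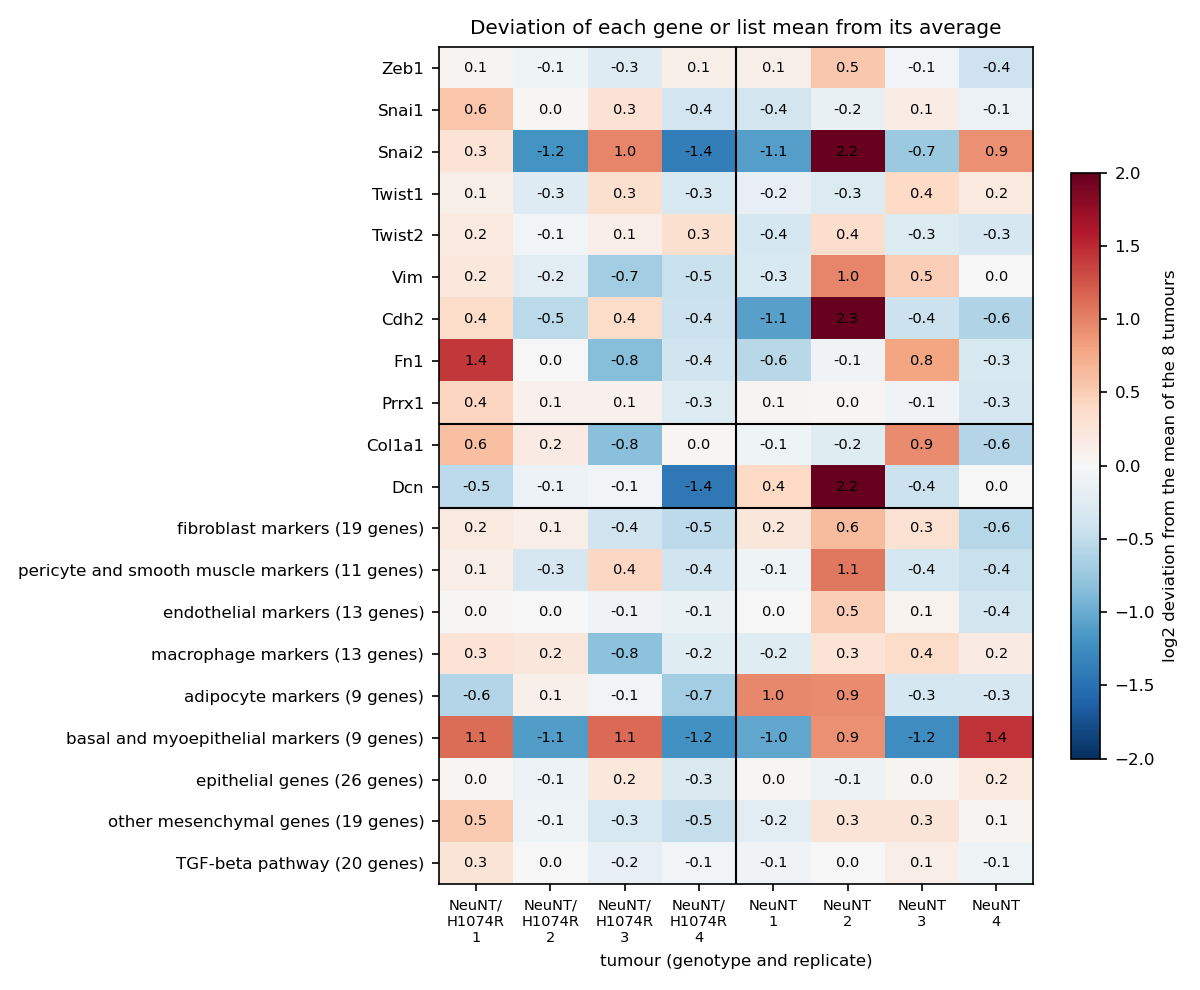
Deviation of each EMT gene, of Col1a1 and Dcn, and of the mean of each marker list from its 8-tumour average (colour and printed value, log2 scale; colours saturate at 2), with the 4 NeuNT/H1074R tumours left of the 4 NeuNT tumours. In NeuNT tumour 2, Snai2, Cdh2, Vim and Dcn are high together with the means of the pericyte and smooth muscle, fibroblast, endothelial and adipocyte lists. Not every gene of the pericyte and smooth muscle list is high there. The basal list mean is high in the same 4 tumours as Snai2.

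Stromal content was read from Col1a1, the main chain of type I collagen, and Dcn, the matrix proteoglycan decorin, both made by fibroblasts. Col1a1 gave 10.69, 10.26, 9.27 and 10.14 in NeuNT/H1074R tumours, against 10.0045, 9.85, 11.04 and 9.51 in NeuNT tumours (difference -0.01 ± 0.38, SE, n = 4 each; limma adjusted p = 0.999). Dcn gave 9.20, 9.60, 9.66 and 8.29 in NeuNT/H1074R tumours, against 10.12, 11.88, 9.30 and 9.73 in NeuNT tumours (difference -1.07 ± 0.55, SE, n = 4 each; limma adjusted p = 0.978). They did not order the tumours alike: Pearson's r between them was -0.31 (exact permutation p = 0.459) and Spearman's rho -0.62 (exact permutation p = 0.115) over 8 tumours. Relations to each are therefore given apart, 18 in all, with p-values adjusted over all 16634 other genes. Dcn had a positive r with 9 of 9 adipocyte markers (median 0.79) and 12 of 13 endothelial markers (0.58). It had one with 18 of 19 fibroblast markers (0.51) and 7 of 9 basal markers (0.51). Col1a1 had one with 17 of 19 fibroblast (0.48), 12 of 13 macrophage (0.555) and 0 of 9 adipocyte markers (-0.25). Neither gene followed fibroblast markers alone, and the part of other cells was not tested.

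Fn1 had the closest relation to Col1a1. Pearson's r was 0.83 (exact permutation p = 0.0111, adjusted p = 0.998) and Spearman's rho 0.79 (exact permutation p = 0.0279, adjusted p = 1.0) over 8 tumours, and 0.649% of genes had a higher r. It was the only member of 9 with an unadjusted p under 0.05, as 4.38% of all genes had, and 0.0% of genes passed after adjustment. With genotype means taken out r was again 0.83, and without the 2 tumours farthest from the median Col1a1 (NeuNT/H1074R tumour 3 and NeuNT tumour 3) it was 0.75 (exact permutation p = 0.113). Fn1 had an r of -0.15 with Dcn.

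With the mean of 19 fibroblast markers in place of a single stromal gene, which added 9 relations, the order of the members changed. Vim had the highest r, 0.73 (exact permutation p = 0.0394, adjusted p = 0.727), followed by Zeb1 at 0.72 (exact permutation p = 0.0336, adjusted p = 0.720). These were the only 2 of 9 with an unadjusted p under 0.05. Of all tested genes outside the marker list, 1109 had one, against 728 for Col1a1 and 1160 for Dcn, and 0 passed after adjustment. Prrx1 had 0.55, Fn1 0.47, Cdh2 0.47, Snai2 0.16, Snai1 0.13, Twist2 0.07 and Twist1 -0.20. NeuNT tumour 2, highest for Vim and Zeb1, was also the highest for the fibroblast mean.

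The other members had weaker relations to Col1a1, none with an exact permutation p under 0.05. Pearson's r was 0.41 for Vim (rho 0.40), 0.32 for Prrx1 (rho 0.24), 0.27 for Snai1 (rho 0.21), 0.24 for Zeb1 (rho 0.21) and 0.08 for Twist1 (rho 0.02). It was -0.08 for Twist2 (rho 0.0), -0.16 for Cdh2 (rho 0.07) and -0.48 for Snai2 (rho -0.55). The median r of the 9 members was 0.24 and that of all genes 0.03. The r of Vim ran from 0.16 without NeuNT/H1074R tumour 3 to 0.78 without NeuNT tumour 2 (exact permutation p = 0.0393, adjusted p = 0.936). Without the 2 farthest tumours r was -0.13 for Vim and 0.81 for Prrx1 (exact permutation p = 0.0583, n = 6).

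With Dcn, the highest r belonged to members that were highest in NeuNT tumour 2, the tumour with the most Dcn. Snai2 had an r of 0.71 (exact permutation p = 0.0410, adjusted p = 0.712) and a rho of 0.60 (exact permutation p = 0.132), and was the only member with an unadjusted Pearson p under 0.05, as 6.97% of all genes had. Again 0.0% of genes passed after adjustment. The r was 0.69 for Cdh2 (rho -0.10), 0.61 for Vim (rho 0.21) and 0.52 for Zeb1 (rho 0.17), each with an exact permutation p of 0.106 or more. Without the 2 tumours farthest from the median Dcn (NeuNT/H1074R tumour 4 and NeuNT tumour 2), r was -0.17 for Snai2, -0.67 for Cdh2, -0.63 for Vim and -0.03 for Zeb1. Without NeuNT tumour 2 alone r was 0.31, -0.28, -0.019 and -0.37 in the same order. Without NeuNT/H1074R tumour 4 alone r was 0.63, 0.73, 0.54 and 0.75. The positive r of Cdh2, Vim and Zeb1 therefore rested on NeuNT tumour 2, and that of Snai2 did in part.

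The remaining 5 members had r with Dcn between -0.21 for Twist1 (rho 0.0) and 0.14 for Prrx1 (rho -0.10). Twist2 had 0.08 (rho -0.24), Snai1 -0.13 (rho -0.24) and Fn1 -0.15 (rho -0.36). Over the 6 tumours left without the farthest pair, r was -0.86 for Snai1 (exact permutation p = 0.0403) and -0.84 for Fn1 (exact permutation p = 0.0417). The adjusted permutation p was 0.989 for each. Over these 6 tumours 592 of 16634 genes had an unadjusted p under 0.05, and 0 passed after adjustment. The median r with Dcn was 0.14 for the members and -0.03 for all genes.

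**Figure D4:**
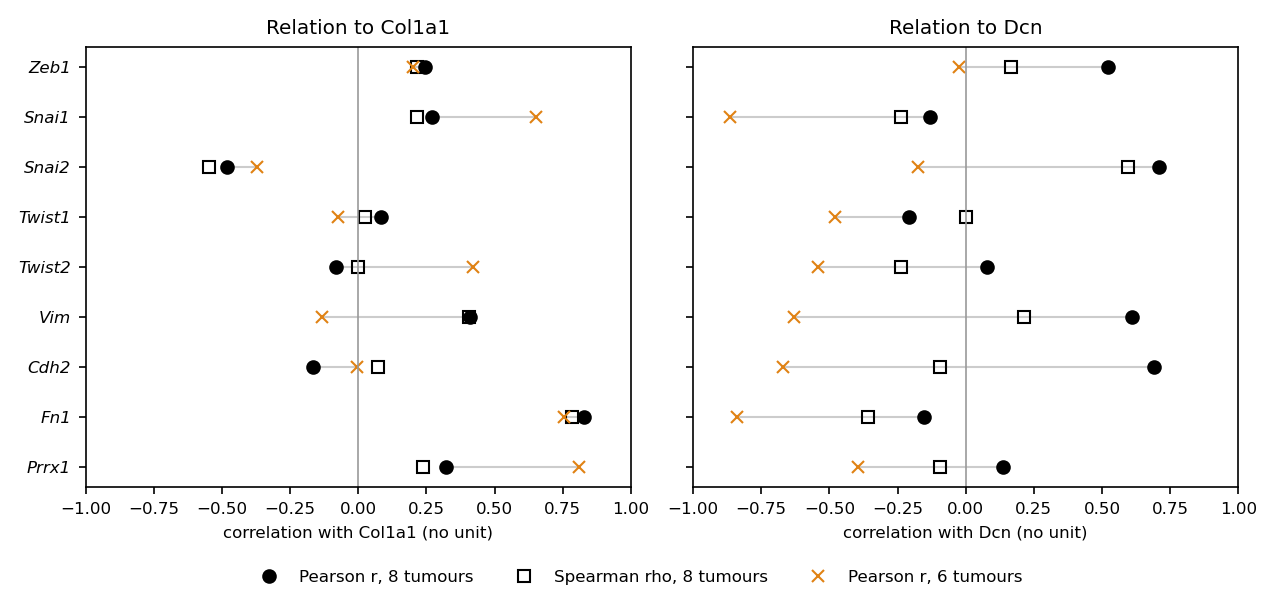
Correlation (no unit) of each EMT gene with Col1a1 (left) and with Dcn (right): Pearson r over 8 tumours (circles), Spearman rho over 8 tumours (squares) and Pearson r over the 6 tumours nearest the median of the stromal gene (crosses). Fn1 with Col1a1 has 0.83, 0.79 and 0.75 on these measures, whereas Snai2, Cdh2 and Vim with Dcn have r of 0.71, 0.69 and 0.61 over 8 tumours and below 0 without the farthest pair.

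Snai2 had its 4 highest values in NeuNT/H1074R tumours 1 and 3 and NeuNT tumours 2 and 4, and basal markers had theirs in the same tumours. Trp63, the master regulator of basal epithelium, gave log2 signals of 7.64, 6.11, 7.65 and 5.59 in NeuNT/H1074R tumours, against 5.55, 8.44, 4.87 and 8.44 in NeuNT tumours. Krt14, a basal keratin, gave 12.49, 6.71, 11.73 and 7.14 in NeuNT/H1074R tumours, against 5.36, 9.37, 7.99 and 12.04 in NeuNT tumours. Of the 9 basal and myoepithelial markers tested, 7 (Krt14, Krt17, Trp63, Cdh3, Lamb3, Col17a1 and Jag2) had their 4 highest values in those 4 tumours and 2 (Oxtr and Itgb4) did not. Among all tested genes, 607 (3.65%) did. This count was chosen after the values were seen and has no test.

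The tumours high for Snai2 and the basal markers were 2 of each genotype. The mean of the 9 basal markers stood 1.12, -1.11, 1.13 and -1.21 from its average in NeuNT/H1074R tumours and -1.04, 0.92, -1.24 and 1.44 in NeuNT tumours. Twist1, Cdh2 and Acta2, the last from the pericyte and smooth muscle list, did not have their 4 highest values there. The genes whose values ran closest to Snai2 were Tpm2, a tropomyosin of contractile cells (r = 0.99), Dkk2, a secreted Wnt modulator (r = 0.99), and Arc (r = 0.97), over 8 tumours. They were picked from all tested genes as the highest r, and their relation to Snai2 was not tested.

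**Figure D5:**
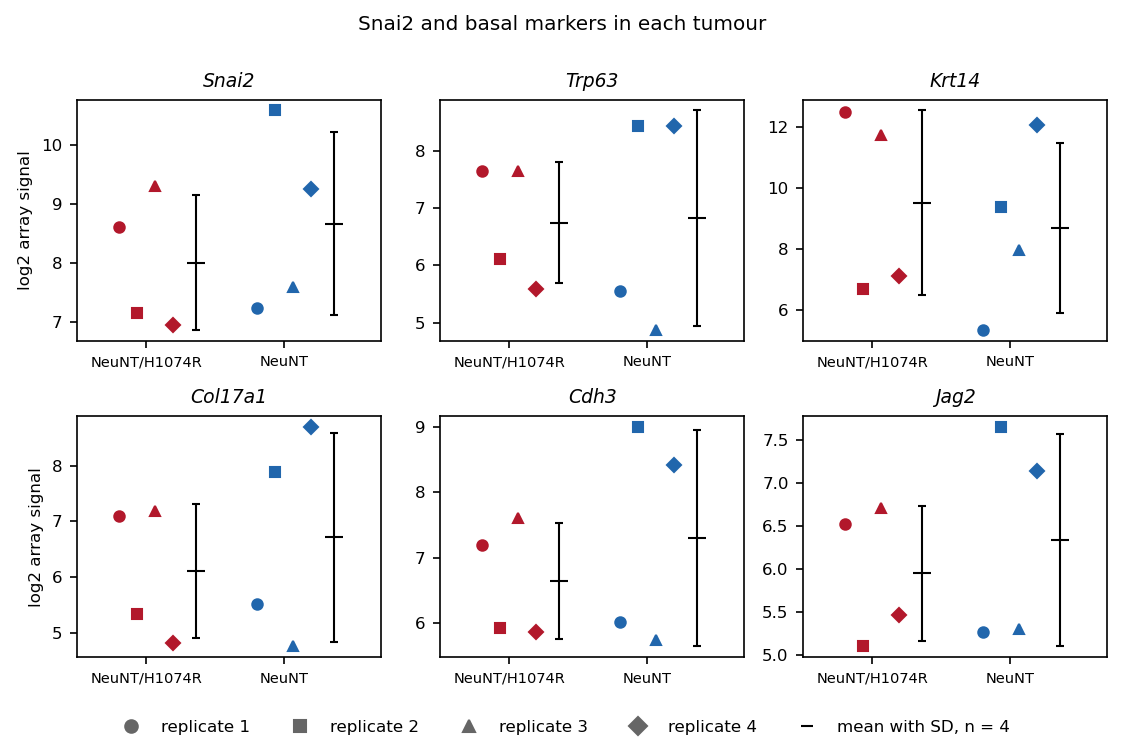
Log2 array signal of Snai2 and of the basal markers Trp63, Krt14, Col17a1, Cdh3 and Jag2, with NeuNT/H1074R tumours left of NeuNT tumours; marker shapes give the replicate number, and bars are the mean with SD (n = 4 each). In every panel the 4 highest values are those of NeuNT/H1074R replicates 1 and 3 and NeuNT replicates 2 and 4.

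The nearest patterns of the other members, by Pearson's r over 8 tumours as a description, were as follows. Each was picked as the highest r among all other tested genes. Over 8 tumours such a pick gives a high r by itself, and none was tested. For Vim they were Rac1, a small GTPase of the actin cytoskeleton (0.98), Kdelr2 (0.98) and Hdac4 (0.97). For Cdh2 they were Hlx (0.98), Thsd1 (0.97) and Cacna2d1 (0.97), and for Fn1 the collectin Colec12 (0.98), Tmem185b (0.97) and Lemd3 (0.97). Zeb1 ran closest to P3h3 (0.97), Snai1 to Lepr (0.93), Twist1 to Slc30a2 (0.98), Twist2 to Ggact (0.95) and Prrx1 to Stard9 (0.97). The first gene differed for each of the 9 members.

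Of the 4 microRNA precursors tested, 0 passed between genotypes. The Mir200b precursor had log2 signals of 4.98, 5.36, 5.07 and 5.48 in NeuNT/H1074R tumours, against 6.08, 5.94, 4.36 and 4.91 in NeuNT tumours (difference -0.10 ± 0.37, SE, n = 4 each; limma adjusted p = 0.988). NeuNT tumours spread further on both sides. Mir205 gave 5.31, 3.57, 5.63 and 3.33 in NeuNT/H1074R tumours, against 3.67, 6.11, 3.80 and 6.61 in NeuNT tumours (difference -0.59 ± 0.81, SE; limma adjusted p = 0.978). Its 4 highest values were in the same 4 tumours as those of Snai2. Mir200a and Mir200c differed by -0.04 and 0.00, Mir141 was below the dim limit, and Mir429 had no probe of its own. The array reads precursor transcripts and not the mature sequences printed above.

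The rest of the programme was likewise without a called gene. Of 26 epithelial genes, 0 passed, 11 were higher and 15 lower on average in NeuNT/H1074R tumours, with a median difference of -0.08. Cdh1, the target of the Snail and Zeb factors, gave 10.51, 10.36, 10.34 and 10.20 in NeuNT/H1074R tumours, against 10.08, 10.35, 9.83 and 10.34 in NeuNT tumours (difference 0.20 ± 0.14, SE, n = 4 each; limma adjusted p = 0.978). The genotypes overlapped. Cldn4, a tight junction claudin, had the smallest unadjusted p of the epithelial list and differed by -1.22 ± 0.45 (SE; limma adjusted p = 0.978, unadjusted p = 0.0247).

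Among 19 tested of 22 other mesenchymal genes, 0 passed, 5 were higher and 14 lower, with a median difference of -0.07. Mmp3, a matrix metalloprotease, differed by -1.09 ± 0.50 and Sparc, a matrix glycoprotein, by -0.46 ± 0.27 (SE, n = 4 each; limma adjusted p = 0.978 for each). The 20 genes of the TGF-beta pathway, a main inducer of EMT, held 11 higher and 9 lower, with a median difference of 0.09 and 0 passed. Ltbp1, which anchors latent TGF-beta in the matrix, differed by -0.78 ± 0.32, and Tgfb3, a ligand, by 0.42 ± 0.25 (SE, n = 4 each; limma adjusted p = 0.978 for each). Of the TGF-beta genes 19 of 20 had a positive r with Col1a1, with a median of 0.44, as had 13 of 19 other mesenchymal genes, with a median of 0.24, beside 0.03 over all genes. The positive r was not particular to these lists: the median was 0.555 for macrophage markers (12 of 13 positive) and 0.48 for fibroblast markers (17 of 19). With Dcn, 9 of 20 TGF-beta genes had a positive r, with a median of -0.08, and 14 of 19 other mesenchymal genes did, with a median of 0.11, beside -0.03 over all genes.

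Markers of other cells that could carry EMT transcripts had 0 called genes. Of 19 fibroblast markers 15 were lower on average in NeuNT/H1074R tumours (median difference -0.23), as were 12 of 13 macrophage markers (-0.31), 11 of 13 endothelial markers (-0.09) and 6 of 11 pericyte and smooth muscle markers (-0.05). Lower means were also found for 7 of 9 basal markers (-0.39), 8 of 9 adipocyte markers (-0.77) and 9 of 11 squamous markers (-0.31). The median over all tested genes was -0.0027. Genes of a list share the same tumours, so these counts are not of independent values. The macrophage list mean was 0.28, 0.23, -0.82 and -0.25 in NeuNT/H1074R tumours, against -0.24, 0.27, 0.37 and 0.16 in NeuNT tumours. The adipocyte mean was -0.58, 0.11, -0.06 and -0.69, against 0.96, 0.95, -0.35 and -0.34. The basal list mean averaged -0.02 in NeuNT/H1074R and 0.02 in NeuNT tumours. The squamous list mean was 3.61 in NeuNT tumour 4 and -1.56, -1.02 and -0.49 in NeuNT tumours 1 to 3. In NeuNT/H1074R tumours it was 0.77, -0.87, 0.45 and -0.89, so the lower squamous mean rested on NeuNT tumour 4. All 13 skeletal muscle markers were higher (median 1.04), 5 of them without overlap between genotypes, as 2.69% of all genes were; their list mean was 1.39 and 1.21 in NeuNT/H1074R tumours 1 and 3, and -0.36 and -0.44 in NeuNT/H1074R tumours 2 and 4. The fibroblast list mean stood at 0.20, 0.13, -0.40 and -0.52 in NeuNT/H1074R tumours and at 0.22, 0.64, 0.30 and -0.57 in NeuNT tumours. With this mean as a covariate the Vim difference was -0.36 ± 0.25, and with Dcn as a covariate -0.34 ± 0.35 (SE; limma adjusted p = 0.999 and 0.981), beside -0.58 without a covariate.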

How the data were processed

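Total RNA of 8 tumours was measured on 1 array each (4 NeuNT/H1074R, 4 NeuNT). The authors deposited 1 table of log2 values for 41345 probes, which ran from 0.887 to 13.6 with array medians of 4.81 to 4.87. Per the submitters' processing notes, Affymetrix Expression Console and Transcriptome Analysis Console were used; their versions and the background correction and normalization were not given in the sources used. The values were used as deposited. Arrays have no read depth, and their number limits the precision.

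Probes were named from the platform annotation, in which 23521 had 1 gene symbol, 1814 several and 16010 none listed; 23328 matched RefSeq by Entrez identifier. A gene kept its single-symbol probe with the highest mean, and genes in the lowest 25% of means (under 4.06) were left out as dim. Genotypes were compared with limma 3.58.1 (R 4.3.3; lmFit, eBayes with intensity trend), as a two-sided test with p-values adjusted by Benjamini-Hochberg across the 16635 genes at 0.05. Correlations over the tumours used exact two-sided permutation tests over all 40320 orders (Python 3.11.15, NumPy 2.4.6), and genotype-centred ones the 576 orders within genotypes. Both procedures were tested on simulated data. With 4 against 4 tumours an exact permutation p cannot go below 0.0286. Genes named are the members, Col1a1 and Dcn, up to 4 genes of each list by smallest unadjusted p and the 3 genes closest to each member. Epcam, Trp63, Krt14, and the basal, pericyte and smooth muscle genes outside that rule were named for their role or after their values were seen. The members and the lists were chosen with earlier results of these data known. Alternatives left out tumours, changed the scaling, the dim filter, the probe, the variance model, the test or the stromal measure, or added a stromal covariate.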

Additional observations from a re-analysis of the deposited data

Results flagged for a closer look

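Of the 22 groups of 4 tumours checked for the 9 members, Col1a1 and Dcn, 1 held a tumour far from the others, and chance alone flags about 1 group in 20. Twist2 had a log2 signal of 4.68 in NeuNT replicate 2, while the other 3 NeuNT tumours lay between 3.98 and 4.06, so that the gap took a share of 0.879 of the group's range. In the same tumour the list means of fibroblast, endothelial, and pericyte and smooth muscle markers were the highest of the 8. The part of these cells in the Twist2 value was not tested.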

How the results depend on the processing

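The count of genes past the adjusted threshold was 0 for the genotypes, for Col1a1 and for Dcn under every alternative run, by limma, by the ordinary two-sample test and by Spearman's rho. With the fibroblast mean in place of Col1a1 or Dcn, 1109 genes had an unadjusted p under 0.05. Otherwise counts at that threshold ran from 358 to 1107 for the genotypes, 414 to 1079 for Col1a1 and 582 to 1512 for Dcn. The 358 came with the lower 50% of means left out and the 1512 with no dim filter, so these counts are over different numbers of genes. No member passed under any alternative. No paired analysis was possible because the tumour numbers pair nothing across genotypes. Leaving out 1 tumour kept the direction of 63 of 72 member differences, 68 of 72 relations to Col1a1 and 63 of 72 relations to Dcn. The other alternatives kept 97 of 106, 64 of 72 and 59 of 72. In these, the relations to the fibroblast mean are among both the 72 for Col1a1 and the 72 for Dcn. The cause of the reversals was not tested.

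Over the tumours left out in turn, the differences that turned sign ranged from -0.25 to 0.067 for Zeb1, -0.19 to 0.046 for Twist1, -0.50 to 0.65 for Cdh2 and -0.38 to 0.37 for Fn1. Those that kept their sign ranged from 0.095 to 0.41 for Snai1, -1.14 to -0.022 for Snai2, 0.23 to 0.47 for Twist2, -0.78 to -0.36 for Vim and 0.050 to 0.28 for Prrx1. The r with Col1a1 ranged from -0.026 to 0.63 for Snai1, -0.46 to 0.46 for Twist1 and -0.33 to 0.23 for Twist2, and with no change of sign from 0.011 to 0.58 for Zeb1, -0.57 to -0.40 for Snai2, 0.16 to 0.78 for Vim, -0.29 to -0.033 for Cdh2, 0.78 to 0.87 for Fn1 and 0.030 to 0.53 for Prrx1. The r with Dcn ranged from -0.37 to 0.75 for Zeb1, -0.56 to 0.065 for Snai1, -0.62 to 0.26 for Twist1, -0.74 to 0.45 for Twist2, -0.019 to 0.73 for Vim, -0.28 to 0.84 for Cdh2, -0.34 to 0.0083 for Fn1 and -0.17 to 0.43 for Prrx1, and from 0.31 to 0.82 for Snai2 with no change of sign.

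With Dcn as a covariate the genotype difference was 0.086 for Zeb1, 0.45 for Snai2, 0.94 for Cdh2 and -0.066 for Fn1, with Vim at -0.34, and with the fibroblast mean it was 0.047 for Zeb1 and 0.25 for Cdh2, with Vim at -0.36 and Fn1 at 0.36. Without NeuNT/H1074R replicates 1 and 3 it was -0.060 for Snai1, -0.17 for Fn1 and -0.0066 for Prrx1, and the r of Snai1 with Dcn was 0.072. With the fibroblast mean in place of Col1a1, r was 0.16 for Snai2, -0.20 for Twist1, 0.074 for Twist2 and 0.47 for Cdh2; in place of Dcn it was 0.13 for Snai1 and 0.47 for Fn1. Without the 2 tumours farthest from the median, r with Col1a1 was -0.074 for Twist1, 0.42 for Twist2 and -0.13 for Vim, and r with Dcn was -0.026 for Zeb1, -0.17 for Snai2, -0.54 for Twist2, -0.63 for Vim, -0.67 for Cdh2 and -0.40 for Prrx1. Spearman's rho was 0.071 for Cdh2 with Col1a1, and with Dcn -0.24 for Twist2 and -0.095 for Cdh2 and Prrx1. With genotype means taken out, r of Snai1 with Dcn was 0.12. With 4 tumours a genotype, the 95% interval of a difference reached 0.395 to either side for the median gene, before adjustment, and a call after adjustment needs a larger change; the intervals of all members but Twist2 and Prrx1 were wider.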
